A study of Mus musculus with 68 samples.

Results

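The 49 genes described here encode the machinery of the mouse nucleolus: RNA polymerase I (Pol I), the factors that start its transcription, the most abundant nucleolar proteins, and proteins that modify, cleave and assemble ribosomal RNA. They were taken by gene name, and all 49 were found among the 24421 reference genes listed in each of 68 RNA-seq libraries. By role they were 5 Pol I subunits (Polr1a to Polr1e), 5 Pol I initiation factors (Rrn3, Ubtf, Taf1a, Taf1b and Taf1c), 4 abundant nucleolar proteins (Ncl, Npm1, Nolc1 and Ddx21), 3 box C/D snoRNP proteins (Fbl, Nop56 and Nop58), 4 box H/ACA snoRNP proteins (Dkc1, Nop10, Nhp2 and Gar1), 18 proteins of the small subunit processome and 40S maturation, and 10 proteins of 60S maturation.

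The nucleolus forms around the tandem ribosomal RNA genes. UBF, the product of Ubtf, opens and bends that DNA, the SL1 complex (TBP with the Taf1 subunits) marks the promoter, and RRN3 brings Pol I to it. The 47S transcript is then methylated under box C/D snoRNPs and pseudouridylated under box H/ACA snoRNPs, and is cut and folded into the 40S and 60S subunits by the processome and the 60S assembly factors. In mouse oocytes and zygotes the nucleolus is replaced by a compact nucleolus precursor body with little or no ribosomal RNA synthesis, and active nucleoli are rebuilt during cleavage.

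The libraries were Smart-seq2 libraries of polyadenylated RNA, a method for very small inputs, made from 10 blastomeres each. Cumulus cells (CCs, 3 libraries) were the nuclear donors, and BDF1 females supplied the oocytes. SCNT (somatic cell nuclear transfer) embryos were made by injecting a CC nucleus into an enucleated oocyte, activating it in SrCl2 with cytochalasin B, and culturing it in G-1 PLUS medium. The question asked here is when these genes reach and pass their level in the donor cells, and how they respond in blastocysts when MAX or MCRS1 is knocked down. SCNT embryos were collected at 6 and 14 h post activation (6 hpa and 14 hpa), at the early and late 2-cell stages (E2C and L2C), at the 4-cell, 8-cell and morula stages (4C, 8C, morula), and at the blastocyst stage, where the inner cell mass (ICM) was parted from the trophectoderm (TE). There were 6 libraries per stage and 5 at 4C. A second set came from fertilized C57BL/6j embryos, with 2 libraries each for ICM and TE from controls, from embryos injected as zygotes with a Max morpholino (Max MO) and from embryos injected with an Mcrs1 morpholino (Mcrs1 MO). The study describes the controls as injected with a control morpholino, at a higher concentration than either knockdown, while the treatment label of these libraries reads untreated. Dose and target therefore cannot be told apart in comparisons between injected groups. No fertilized embryos of earlier stages and no SCNT embryos with a morpholino were compared, and ICM and TE were separated by hand under a micromanipulator.

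Levels are given in TPM, which is scaled within each library after division by length, so levels of different genes can be compared only approximately. In bulk libraries, fewer cells of a type and less RNA per cell cannot be told apart. Nothing in the labels says that the libraries of a group came from separate embryo batches, so the p-values measure only the spread between these libraries. Sequencing depth was inferred from the coverage columns as 1.00 to 5.17 gigabases per library, and read counts are not known. Each table lists loci assembled from the library beside the reference genes. The summed TPM of the reference genes was between 30.4% and 94.4% of that of the assembled loci, and was lowest at L2C (30.4% to 61.8%). The assembled loci alone reach the full TPM sum, so a value is not an exact share of all transcripts. Cumulus markers summed to between 1250 and 1946 TPM in CCs and to at most 66.2 TPM in any SCNT library. Oocyte markers summed to at most 2.25 TPM in CCs and to between 4196 and 8172 TPM at 6 hpa, so a value at 6 hpa includes RNA stored in the oocyte. ICM markers separated the SCNT ICM (293 to 508 TPM) from the SCNT TE (59.1 to 264 TPM), while TE markers overlapped, at 1932 to 8403 TPM in ICM and 5129 to 16075 TPM in TE. Libraries that stood apart were control ICM replicate 1, where TE markers reached 16011 TPM against 354 TPM in replicate 2, and SCNT ICM replicates 1 to 3, in which 6177 to 6771 genes reached 1 TPM against 9011 to 10032 in replicates 4 to 6. At E2C, 17 of the 49 genes were higher in each of replicates 1 to 3 than in each of replicates 4 to 6, and 5 were lower in each. This was counted for the list only, so it gives no comparison with all genes.

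The 49 genes together took a small share of the reference gene TPM in CCs and a larger one at 8C. Their summed TPM was 0.347% to 0.374% of the reference gene TPM in CCs. It ran from 0.454% to 0.597% at 6 hpa with a median of 0.529%, from 0.552% to 0.585% at 14 hpa with a median of 0.571%, and from 0.295% to 0.350% at E2C with a median of 0.334%. E2C was therefore the one SCNT group that reached down to the CC range. The share then ran from 0.647% to 1.38% at L2C, from 1.34% to 1.498% at 4C and from 1.49% to 1.74% at 8C, and every 8C library but the lowest lay above all libraries of other stages. It ran from 1.11% to 1.44% in morulae, from 0.628% to 0.827% in the ICM and from 0.579% to 0.693% in the TE. This share leans on a few abundant genes, of which Npm1, the gene of nucleophosmin, had the highest mean over the SCNT libraries (1612 TPM). The next were Nhp2 (640.1 TPM) and Brix1 (593.7 TPM).

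**Figure D1:**
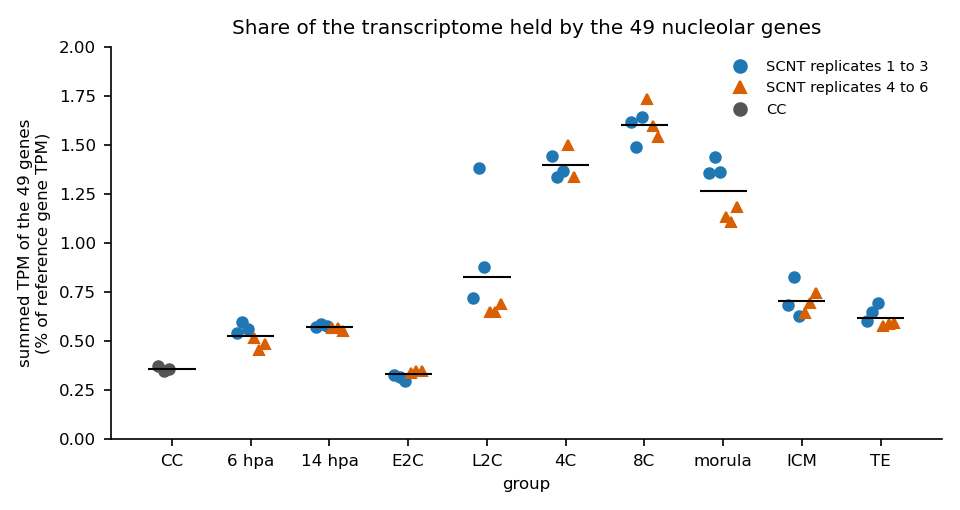
Summed TPM of the 49 nucleolar genes as a percent of the TPM of all reference genes (y axis) in each CC and SCNT library (x axis, by stage). Circles are replicates 1 to 3, triangles replicates 4 to 6, and the line marks the mean. The CC libraries sit at 0.347% to 0.374% and the 8C libraries at 1.49% to 1.74%.

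**Figure D2:**
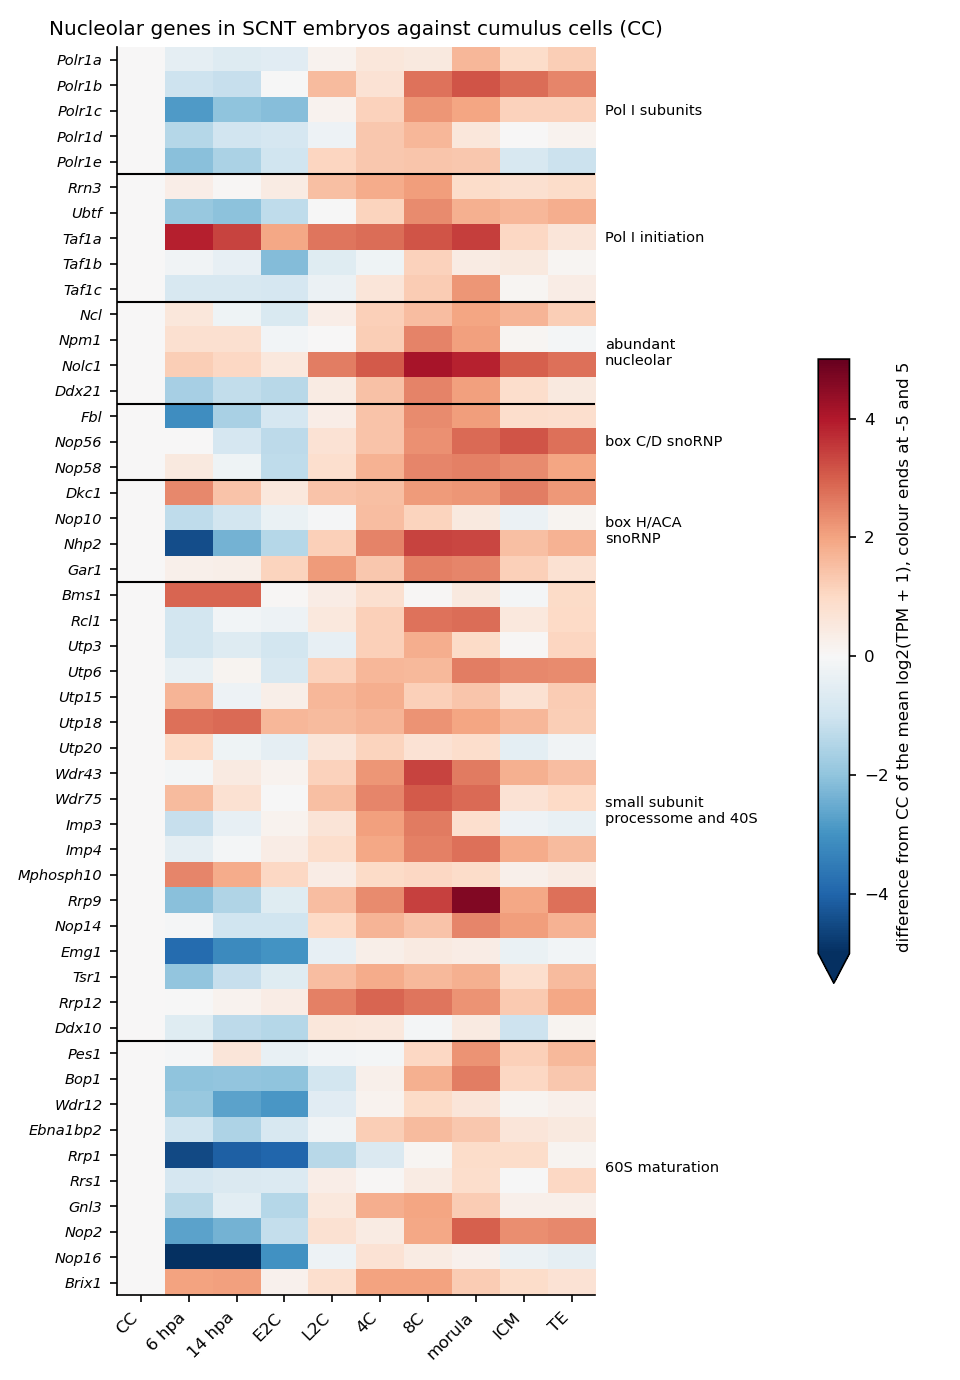
Difference of the mean log2(TPM + 1) from the CC mean for each of the 49 genes (rows, grouped by role) in CCs and the 9 SCNT groups (columns). Colour ends at -5 and 5. The first 3 SCNT columns mix higher and lower genes, and the 8C and morula columns are mostly higher.

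At 6 hpa the list split, as did the tested genes as a whole. Of the 49 genes, 9 were higher than in CCs and 19 were lower, by an adjusted p under 0.05 and at least a 2-fold difference in limma on log2(TPM + 1). These were 18.4% and 38.8% of the list, beside 25.8% higher and 35.6% lower among the 12084 genes tested. The median difference of the 49 genes was -0.62 on the log2 scale, and that of all tested genes -0.28. Under quantile normalization 11 of the 49 were higher and 14 lower, with medians of -0.11 for the list and 0.01 for all genes. Processome genes went both ways, with 5 of 18 higher and 4 lower. 60S maturation genes were mostly lower, 7 of 10 with 1 higher, and 3 of 5 Pol I subunits were lower with 0 higher.

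The largest gain at 6 hpa was in Taf1a, an SL1 subunit. It stood at 3.82, 4.88 and 4.91 TPM in CCs and between 60.1 and 147 TPM at 6 hpa, with a median of 73.9 TPM. Every 6 hpa library was above every CC library, and the log2 fold change was 3.88 ± 0.59 (SE, adjusted p = 8.41e-08 by limma). Bms1, a GTPase of the processome, stood at 6.83, 7.05 and 10.6 TPM in CCs and between 48.1 and 134 TPM at 6 hpa with a median of 58.4 TPM, again with no overlap (2.92 ± 0.66, adjusted p = 0.000122 by limma). Utp18, another processome protein, ran from 14.8 to 21.9 TPM in CCs and from 90.4 to 219 TPM at 6 hpa, with a median of 129 TPM and a log2 fold change of 2.76 ± 0.44 (adjusted p = 2.13e-07 by limma). The other 6 genes that were higher were Mphosph10, Dkc1, Brix1, Utp15, Wdr75 and Nolc1, with log2 fold changes from 2.44 down to 1.24.

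The largest losses at 6 hpa were of genes that CCs expressed well. Nop16, a 60S assembly factor, stood at 142, 143 and 159 TPM in CCs and between 0.196 and 3.76 TPM at 6 hpa, with a median of 0.691 TPM. The groups lay far apart, with a log2 fold change of -6.31 ± 0.57 (adjusted p = 2.96e-14 by limma). Rrp1, also of the 60S pathway, stood at 55.2, 73.7 and 85.0 TPM in CCs and between 0.549 and 3.08 TPM at 6 hpa, with a median of 2.63 TPM (-4.50 ± 0.59, adjusted p = 2.07e-09 by limma). Nhp2, a core protein of box H/ACA snoRNPs, stood at 128, 164 and 199.5 TPM in CCs and between 2.34 and 11.7 TPM at 6 hpa, with a median of 7.54 TPM (-4.45 ± 0.37, adjusted p = 1.43e-15 by limma). A pair of methyltransferase genes was also lower. Emg1, which modifies 18S rRNA, stood at 260, 270 and 314 TPM in CCs and between 13.1 and 32.6 TPM at 6 hpa with a median of 19.1 TPM, a log2 fold change of -3.83. Fbl, the gene of fibrillarin, the methyltransferase of box C/D snoRNPs, stood at 17.4, 23.4 and 30.0 TPM in CCs and between 0.582 and 4.13 TPM at 6 hpa with a median of 2.10 TPM, a log2 fold change of -3.12. Oocyte markers moved with each of these differences, as given above, and their part in them was not tested.

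Roles were thus not uniform within a complex at 6 hpa. Of the box H/ACA proteins, Dkc1, the pseudouridine synthase dyskerin, was higher (30.9 to 42.0 TPM in CCs, 170 to 212 TPM at 6 hpa, log2 fold change 2.41), while its partners Nhp2 and Nop10 were lower (-4.45 and -1.28). Gar1, the fourth protein, did not pass the threshold. In the 60S group, Brix1 stood at 186, 191 and 246 TPM in CCs and between 707 and 1041 TPM at 6 hpa, with a median of 808 TPM. It was the 1 gene of 10 in its group that was higher, by a log2 fold change of 2.02 ± 0.33 (adjusted p = 6e-07 by limma). Rrn3, the most abundant initiation factor, stood at 42.3, 51.8 and 61.1 TPM in CCs and between 49.2 and 75.1 TPM at 6 hpa with a median of 66.9 TPM. Its ranges overlapped and it did not pass the threshold.

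**Figure D3:**
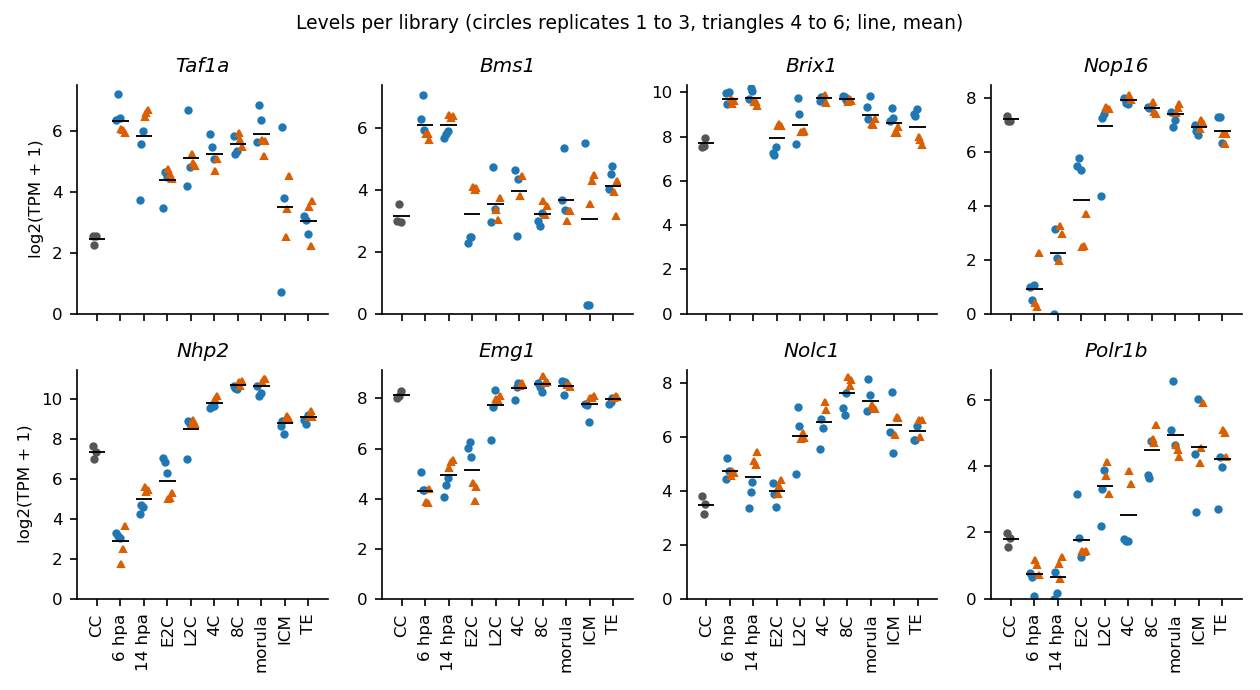
log2(TPM + 1) (y axis) of Taf1a, Bms1, Brix1, Nop16, Nhp2, Emg1, Nolc1 and Polr1b in every CC and SCNT library (points) by stage (x axis), with the mean as a line. Taf1a, Bms1 and Brix1 are high at 6 and 14 hpa, Nop16, Nhp2 and Emg1 are low there and high from L2C, and Nolc1 and Polr1b are highest at 8C or later.

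By 14 hpa, when SCNT embryos are still at the 1-cell stage, little in the list had moved. Against 6 hpa, 3 genes were higher and 2 lower, 6.12% and 4.08% of the list beside 6.17% and 5.02% of all genes tested. Nhp2 was between 17.8 and 47.1 TPM at 14 hpa, with a median of 32.0 TPM, above every 6 hpa library (log2 fold change 2.09 ± 0.30, adjusted p = 5.52e-07 by limma). Fbl was between 1.74 and 13.7 TPM at 14 hpa with a median of 7.37 TPM, overlapping 6 hpa (1.49 ± 0.35, adjusted p = 0.00137 by limma). Nop16 was between 0 and 8.44 TPM with a median of 5.02 TPM, also overlapping (1.33 ± 0.47, adjusted p = 0.0471 by limma). Both losses were processome genes. Utp15 was between 29.6 and 42.7 TPM at 6 hpa with a median of 39.0 TPM and between 1.34 and 14.6 TPM at 14 hpa with a median of 11.9 TPM, with no overlap (-1.99 ± 0.39, adjusted p = 0.000149 by limma). Utp20 was between 5.14 and 8.50 TPM at 6 hpa with a median of 6.03 TPM and between 1.08 and 3.49 TPM at 14 hpa with a median of 2.24 TPM (-1.19 ± 0.40, adjusted p = 0.036 by limma). Nop16 lost its call without any 1 of 6 hpa replicates 1 to 5 or 14 hpa replicates 2 to 6 (1.13 to 1.38), and Utp20 without any 1 of 6 hpa replicates 1 to 5 or 14 hpa replicates 2 to 5 (-1.06 to -1.21). Without 6 hpa replicate 2, 3, 4 or 5, or 14 hpa replicate 2, 3 genes were called in place of 5.

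Against CCs, 14 hpa embryos had 7 genes higher and 13 lower (14.3% and 26.5% of the list, beside 24.6% and 34.6% of all genes), with a median of -0.63 for the list and -0.31 for all genes. All libraries of CC enter this and every other comparison with CCs, which are therefore not independent of each other. Taf1a was between 12.2 and 102 TPM at 14 hpa with a median of 75.5 TPM, above CCs by a log2 fold change of 3.38. Bms1 was between 50.5 and 85.9 TPM with a median of 69.9 TPM (2.93), and Utp18 between 82.6 and 293 TPM with a median of 137 TPM (2.83). Each of these 3 lay above all CC libraries at 14 hpa. The largest losses were in Nop16 (-4.98), in Rrp1 (-4.08; between 0.271 and 7.74 TPM, with a median of 4.79 TPM) and in Emg1 (-3.19; between 15.8 and 46.0 TPM, with a median of 31.6 TPM), each with all 14 hpa libraries under all CC libraries.

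At E2C, 3 of the 9 genes that had been higher than CCs at 6 hpa were lower than at 14 hpa (Bms1, Brix1 and Utp18). The like share over all genes was not counted. Against 14 hpa, 5 genes were lower and 1 was higher (10.2% and 2.04% of the list, beside 3.1% and 2.9% of all genes tested). Bms1 was between 3.90 and 16.2 TPM at E2C with a median of 9.74 TPM, under every 14 hpa library (-2.87 ± 0.54, adjusted p = 0.000212 by limma). Brix1 was between 662 and 1177 TPM at 14 hpa with a median of 799 TPM, and between 143 and 377 TPM at E2C with a median of 269 TPM, again with no overlap (-1.83 ± 0.27, adjusted p = 3.91e-06 by limma). Taf1b, the SL1 subunit, was between 7.73 and 30.5 TPM at 14 hpa with a median of 21.1 TPM, and between 1.52 and 9.48 TPM at E2C with a median of 5.34 TPM (-1.73 ± 0.44, adjusted p = 0.00696 by limma). Utp18 and Nop58 were the other losses, at -1.16 and -1.07. Nop16 was the 1 gene that was higher, between 4.53 and 53.5 TPM at E2C with a median of 25.5 TPM (1.97 ± 0.47, adjusted p = 0.00354 by limma). Its spread at E2C followed the replicate numbers, at 39.0 to 53.5 TPM in replicates 1 to 3 and 4.53 to 11.9 TPM in replicates 4 to 6. The step depends on which replicates are used. With replicates 1 to 3 of every SCNT stage 8 genes were higher and 4 lower, and with replicates 4 to 6 0 were higher and 17 lower. The shares of all genes in these fits are not given, so the counts show no difference of the list from all genes.

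E2C also had fewer genes above CCs than any other stage. Of the 49 genes, 3 were higher and 13 were lower (6.12% and 26.5%, beside 25.2% and 32.4% of all genes), with a median of -0.70 beside -0.19 for all genes. Taf1a was between 10.0 and 26.0 TPM with a median of 22.3 TPM, still above all CC libraries (1.94 ± 0.59, adjusted p = 0.00378 by limma). Utp18 was between 46.1 and 75.0 TPM with a median of 63.3 TPM (1.66), and Mphosph10 between 75.5 and 116 TPM with a median of 91.5 TPM against 41.9, 42.7 and 47.8 TPM in CCs (1.02). Mphosph10 sat at the fold limit and fell under it without CC replicate 1 or 3 or E2C replicate 5 or 6, where its log2 fold change was between 0.95 and 1.00. The largest losses were again Rrp1 (between 1.10 and 10.8 TPM with a median of 3.91 TPM, log2 fold change -3.97), Nop16 (-3.01) and Emg1 (between 14.1 and 75.8 TPM with a median of 36.6 TPM, -2.97). Each of their E2C libraries lay under every CC library. With replicates 1 to 3 alone, 10 genes differed from CCs in place of 16.

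Steps between neighbouring stages were tested from 6 hpa to morula, and not from morula to blastocyst. Among the tested steps, the one from E2C to L2C held the most calls in the list. Across it the mouse embryo passes major zygotic genome activation. Here 28 of the 49 genes were higher and 0 lower, 57.1% of the list beside 23.6% of all genes higher and 11.1% lower, and the median change was 1.18 beside 0.26 for all genes. Every role contributed, with 3 of 5 Pol I subunits, 3 of 5 initiation factors, 3 of 4 abundant nucleolar proteins, 3 of 3 box C/D proteins, 1 of 4 box H/ACA proteins, 10 of 18 processome genes and 5 of 10 60S genes. Nop16 was between 19.5 and 202 TPM at L2C with a median of 180 TPM, and overlapped E2C only through L2C replicate 1 (2.77 ± 0.47, adjusted p = 2.87e-06 by limma). Nhp2 was between 31.3 and 133 TPM at E2C with a median of 57.5 TPM, and between 129 and 499 TPM at L2C with a median of 433 TPM (2.61 ± 0.30, adjusted p = 6.63e-10 by limma). Rrp1 was between 13.1 and 57.0 TPM at L2C with a median of 25.2 TPM, above every E2C library (2.57 ± 0.48, adjusted p = 1.75e-05 by limma). Of the 19 genes that were lower than CCs at 6 hpa, 14 were higher at L2C than at E2C, and of the 9 that had been higher at 6 hpa, 3 were. The same shares over all genes were not counted, so these are no trait shown for the list. With replicates 1 to 3 of every SCNT stage the step had 14 calls in place of 28.

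At L2C the list no longer lay below the donor cells. Against CCs, 14 genes were higher and 1 was lower (28.6% and 2.04%, beside 27.8% and 23.5% of all genes), with a median of 0.58 beside 0.17. This count depends on the scaling: when TPM was rescaled to the sum over the reference genes, which was lowest at L2C, 27 genes were higher and 0 lower, and the median of all genes was 0.70. Of all called genes, 69.7% were then higher, in place of 54.2%. Taf1a was between 17.2 and 102 TPM with a median of 29.0 TPM, above all CC libraries (2.66 ± 0.59, adjusted p = 0.000129 by limma). Nolc1, a nucleolar phosphoprotein that binds snoRNPs and Pol I, stood at 7.68, 10.3 and 12.9 TPM in CCs and between 23.5 and 135 TPM at L2C with a median of 64.8 TPM (2.54 ± 0.41, adjusted p = 7.51e-07 by limma). Rrp12, which takes part in export of the subunits, ran from 0.341 to 0.468 TPM in CCs and from 5.38 to 9.59 TPM at L2C with a median of 7.29 TPM (2.54 ± 0.61, adjusted p = 0.000389 by limma). All L2C libraries lay above all CC libraries for these 3 genes. The 1 loss, Rrp1 (-1.40 ± 0.59, adjusted p = 0.0402 by limma), was lost without CC replicate 1, 2 or 3 or L2C replicate 1, 2 or 3, and 1 L2C library reached the CC range.

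From L2C to 4C the list's median was above that of all genes. Against L2C, 13 of the 49 genes were higher and 0 lower, 26.5% of the list beside 11.7% of all genes higher and 26.5% lower, with a median of 0.70 for the list and -0.33 for all genes. Utp3, of the processome, was between 2.30 and 52.6 TPM at L2C with a median of 45.4 TPM, and at 58.3, 67.8, 51.6, 142 and 109 TPM in the 5 libraries of 4C (1.61 ± 0.49, adjusted p = 0.00631 by limma). The low value of 2.30 TPM was L2C replicate 1, without which Utp3 lost its call (1.01) and 8 genes were called in place of 13. Nop10, of the box H/ACA snoRNPs, was between 85.0 and 171 TPM at L2C with a median of 103 TPM, and at 290.2, 277, 350.4, 359 and 417 TPM at 4C, with no overlap (1.58 ± 0.21, adjusted p = 1.9e-08 by limma). Polr1d, a small subunit that Pol I shares with Pol III, was between 56.6 and 273 TPM at L2C with a median of 129.5 TPM, and at 222, 326, 321, 572 and 612 TPM at 4C (1.57 ± 0.30, adjusted p = 1.71e-05 by limma). The 4C values of these 3 genes were highest in replicates 4 and 5, and the ranges of Polr1d and Utp3 overlapped those of L2C. With replicates 1 to 3 alone the step had 4 calls, and with replicates 4 to 6 it had 22. Under rescaling to the reference genes it had 9 genes higher and 1 lower. Under quantile normalization it had 13 higher, and the median of all genes was 0.06 in place of -0.33.

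Against CCs, 28 of the 49 genes were higher at 4C and 0 lower (57.1%, beside 16.5% higher and 23.6% lower of all genes, medians 1.34 and -0.07). All 4 abundant nucleolar proteins and all 3 box C/D proteins were among them, with 3 of 4 box H/ACA proteins, 11 of 18 processome genes, 3 of 10 60S genes, 2 of 5 Pol I subunits and 2 of 5 initiation factors. Nolc1 was at 45.1, 99.1, 79.3, 153 and 124 TPM, all above CCs (3.08 ± 0.43, adjusted p = 3.4e-08 by limma). Rrp12 was at 10.1, 10.0, 4.62, 12.3 and 13.4 TPM (2.91 ± 0.63, adjusted p = 0.000143 by limma), and Taf1a at 58.8, 43.1, 32.7, 24.5 and 33.3 TPM (2.78 ± 0.61, adjusted p = 0.00016 by limma). Neither gene overlapped CCs. Under rescaling 35 genes were higher, and 52.8% of all called genes were higher in place of 41.1%.

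The summed share and the number of genes above CCs were highest at 8C, while the median difference from CCs was about the same at 8C and in morulae. Of the 49 genes, 20 had their highest stage mean there and 13 in morulae, with 6 at 4C and the rest spread over the other groups, while 21 had their lowest mean at 6 hpa and 17 at E2C. Against CCs, 36 genes were higher and 0 lower (73.5%, beside 20.2% higher and 25.1% lower of all genes), and the median was 1.93 beside 0 for all genes. The 36 took in all 4 abundant nucleolar proteins, all 3 box C/D and all 4 box H/ACA proteins, 14 of 18 processome genes, 4 of 5 initiation factors, 3 of 5 Pol I subunits and 4 of 10 60S genes.

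Nolc1 led at 8C, between 109.5 and 298 TPM with a median of 216 TPM, above every CC library (4.14 ± 0.41, adjusted p = 2.44e-12 by limma). Rrp9, a U3 snoRNP protein, stood at 5.14, 7.69 and 11.9 TPM in CCs and between 28.9 and 213 TPM at 8C with a median of 116 TPM (3.42 ± 0.86, adjusted p = 0.000782 by limma). Wdr43, a processome WD-repeat protein, stood at 33.3, 42.8 and 44.6 TPM in CCs and between 295 and 543 TPM at 8C with a median of 471.5 TPM (3.398 ± 0.34, adjusted p = 2.07e-12 by limma). None of the 3 overlapped CCs. Among the most abundant members, Npm1 stood at 667, 751 and 775 TPM in CCs and between 3279 and 4773 TPM at 8C with a median of 4183 TPM (2.47). Nhp2 was between 1478 and 1922 TPM with a median of 1643 TPM (3.37). Both again lay clear of CCs. Of the initiation factors, Rrn3 was between 199.8 and 240.2 TPM with a median of 225 TPM (2.11), and Ubtf, at 5.91, 6.07 and 7.56 TPM in CCs, was between 22.6 and 55.98 TPM with a median of 40.5 TPM (2.37). Of the catalytic subunits of Pol I, Polr1b, at 1.93, 2.58 and 2.94 TPM in CCs, was between 11.5 and 37.1 TPM with a median of 25.5 TPM (2.70). The largest subunit, Polr1a, stayed low, between 0.273 and 6.59 TPM with a median of 4.49 TPM, and did not pass the threshold against the 1.72 to 2.53 TPM of CCs.

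The step from 4C to 8C itself had 8 genes higher and 0 lower (16.3%, beside 11.6% higher and 8.39% lower of all genes). Polr1b was at 2.46, 2.36, 2.33, 13.5 and 10.1 TPM at 4C, of which only replicate 4 reached the 8C range (1.96 ± 0.48, adjusted p = 0.00192 by limma). Rcl1, of the processome, was at 12.1, 37.8, 45.5, 72.5 and 57.4 TPM at 4C and between 60.3 and 181 TPM at 8C with a median of 125 TPM (1.53 ± 0.53, adjusted p = 0.0284 by limma). Taf1b was at 2.70, 54.4, 17.5, 52.8 and 21.3 TPM at 4C and between 43.1 and 75.8 TPM at 8C with a median of 53.0 TPM (1.40 ± 0.46, adjusted p = 0.0224 by limma). The last 2 calls rest in part on 4C replicate 1, without which they had log2 fold changes of 1.13 and 0.76 and were lost. Rcl1 was also lost without 4C replicate 2 (1.52) or 8C replicate 4 or 6 (1.40 and 1.47). The count of 8 became 3 without 4C replicate 1, 5 without 4C replicate 3 or 8C replicate 5, and 4 without 8C replicate 4 or 6. Under rescaling to the reference genes it became 1 higher and 1 lower, and the share of all called genes that were higher became 32.1% in place of 58%.

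Morulae stayed near the 8C level. Against CCs 33 genes were higher and 0 lower (67.3%, beside 24.1% and 21% of all genes, medians 1.96 and 0.13). Rrp9 was between 126 and 287 TPM with a median of 254 TPM (4.61 ± 0.86, adjusted p = 1.28e-05 by limma), Nolc1 between 122 and 277 TPM with a median of 138 TPM (3.84) and Taf1a between 35.5 and 115 TPM with a median of 50.7 TPM (3.44). All morula libraries lay above all CC libraries for these 3. Against 8C, 0 genes were higher and 3 were lower (6.12%, beside 9.05% higher and 3.53% lower of all genes), and these were Imp3, Rrn3 and Polr1d. Imp3, which pairs U3 snoRNA with pre-rRNA, was between 177 and 486 TPM at 8C with a median of 313 TPM, and between 61.0 and 111 TPM in morulae with a median of 95.1 TPM (-1.77 ± 0.42, adjusted p = 0.00221 by limma). Rrn3 was between 59.7 and 203 TPM in morulae with a median of 83.6 TPM (-1.21 ± 0.31, adjusted p = 0.00435 by limma). Polr1d was between 292 and 606 TPM at 8C with a median of 514 TPM, and between 147 and 393 TPM in morulae with a median of 217 TPM (-1.07 ± 0.28, adjusted p = 0.00646 by limma). Of these only Imp3 had groups that did not overlap, and Polr1d fell under the fold limit without morula replicate 2 (-0.95). Without 8C replicate 4, 2 genes were higher and 3 lower.

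In blastocysts the list stood between CCs and morulae. The ICM had 15 genes higher than CCs (30.6%, beside 16.9% of all genes, medians 0.88 and 0), the TE had 20 (40.8%, beside 18.8%, medians 1.01 and 0.06), and 0 were lower in either, against 21% and 17% of all genes. Nop56, a core protein of box C/D snoRNPs, stood at 44.5, 87.2 and 95.3 TPM in CCs, between 448 and 947 TPM in the ICM with a median of 658 TPM, and between 259.8 and 691 TPM in the TE with a median of 546 TPM. Its log2 fold changes were 3.16 ± 0.44 (adjusted p = 4.61e-08 by limma) and 2.74 ± 0.44 (adjusted p = 1.19e-06 by limma), with no overlap with CCs. Nolc1 was between 41.2 and 199.7 TPM in the ICM with a median of 86.3 TPM (2.97), and between 56.9 and 97.6 TPM in the TE with a median of 73.0 TPM (2.75). Polr1b was between 5.08 and 64.8 TPM in the ICM with a median of 20.9 TPM (2.80). Each of these lay above CCs in every library. Rrp9 was between 16.5 and 160.1 TPM in the TE with a median of 85.0 TPM (2.75 ± 0.86, adjusted p = 0.00882 by limma), and was lost without CC replicate 3 (2.49), which also left 13 calls in the TE in place of 20. Npm1, which had led at 8C, was between 686 and 947 TPM in the ICM with a median of 764 TPM and overlapped CCs. With SCNT replicates 4 to 6 alone, 26 genes differed between ICM and CCs.

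Between SCNT ICM and TE no gene of the list passed the threshold in limma, beside 5.79% of all genes. An unadjusted p under 0.05 was found for 3 members (Ddx10, Utp3 and Nop10, all lower in the ICM) and for 2249 of the 12084 genes tested. Without ICM replicate 6, 1 gene was lower in the ICM. With replicates 1 to 3 the count was 3 and with replicates 4 to 6 it was 2. The spread within the ICM was wide for many low genes: Taf1a ran from 0.653 to 68.7 TPM with a median of 11.3 TPM and Rrp9 from 1.32 to 164 TPM with a median of 78.4 TPM. A difference of the size of that spread was not detectable in these libraries.

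The knockdowns were first checked in the targeted genes. Max encodes the partner through which MYC proteins bind DNA, and Mcrs1 a nucleolar and centrosomal protein. A morpholino can block translation without lowering its RNA. Max was at 38.0 and 8.42 TPM in control ICM and at 6.82 and 0.443 TPM in Max MO ICM, and at 34.5 and 28.5 TPM in control TE and 16.3 and 8.68 TPM in Max MO TE. The Max MO libraries lay below their controls in both lineages, and the ICM difference passed the threshold (-2.51, adjusted p = 0.0397 by limma) while the TE difference did not (-1.32, adjusted p = 0.39 by limma). In Mcrs1 MO libraries, Max was at 14.4 and 9.25 TPM in ICM and 17.6 and 15.7 TPM in TE. Mcrs1 was at 253 and 310.1 TPM in control ICM, 86.8 and 73.4 TPM in Mcrs1 MO ICM, 219 and 294 TPM in control TE and 41.1 and 45.5 TPM in Mcrs1 MO TE. It was lower in both lineages (-1.80, adjusted p = 0.00333 by limma, and -2.53, adjusted p = 0.000868 by limma). In Max MO it was at 218 and 242 TPM in ICM and 206 and 194 TPM in TE. Myc, a partner of MAX, was between 8.96 and 19.6 TPM in control ICM and between 12.6 and 29.3 TPM in Max MO ICM, while Mycn ran from 0.832 to 110.8 TPM in control ICM and from 14.5 to 28.2 TPM in Max MO ICM, and neither passed the threshold in any of the 4 comparisons with controls.

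E-boxes, the sites that MYC-MAX dimers bind, were looked for as the letters CACGTG in the 250 bases before each start site. CACGTG reads the same on both strands. Of the 43 members with a RefSeq promoter entry, 4 held it (9.3%), beside 6.86% of the 27025 genes with an entry. The windows are shown because Max is one of the 2 genes knocked down, and they are from RefSeq on build GRCm38.p6, 5′ to 3′ on the gene's strand, with the CACGTG letters in capitals. Rrn3 held 2, at 215 and 48 bases before its start (chr16:13780449-13780698, plus strand), Nop2 1 at 60 bases (chr6:125131776-125131875, plus strand), Utp18 1 at 20 bases (chr11:93885767-93885866, minus strand) and Imp4 1 at 121 bases (chr1:34439661-34439760, plus strand).
Rrn3: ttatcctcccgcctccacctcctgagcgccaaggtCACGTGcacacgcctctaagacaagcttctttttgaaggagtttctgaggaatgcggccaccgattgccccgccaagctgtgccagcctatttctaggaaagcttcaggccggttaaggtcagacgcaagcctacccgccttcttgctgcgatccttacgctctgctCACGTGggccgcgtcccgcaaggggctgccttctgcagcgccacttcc
Nop2: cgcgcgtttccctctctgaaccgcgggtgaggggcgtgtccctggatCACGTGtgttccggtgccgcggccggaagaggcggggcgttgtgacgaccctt
Utp18: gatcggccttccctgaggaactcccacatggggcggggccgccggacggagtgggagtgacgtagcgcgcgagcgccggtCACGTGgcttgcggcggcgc
Imp4: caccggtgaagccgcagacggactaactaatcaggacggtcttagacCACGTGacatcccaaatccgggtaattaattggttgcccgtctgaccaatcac
In Max MO ICM, Rrn3 and Nop2 were lower (log2 fold changes -1.94 and -1.03), and Utp18 and Imp4 did not pass the threshold (0.23 and 0.72). Bms1, Ubtf and Utp20, with larger falls, are not among the 4. In Mcrs1 MO ICM Nop2 was lower as well (-1.15), and Rrn3 passed on p and not on fold (-0.90, adjusted p = 0.0328 by limma). Utp18 (0.29) and Imp4 (0.30) did not pass there. How many of all genes with these letters were lower was not counted. A match of letters is a description of the sequence, and binding was not measured here.

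In Max MO ICM, 5 of the 49 genes were higher than in control ICM and 9 were lower, by the same threshold. These were 10.2% and 18.4% of the list, beside 8.65% higher and 15.1% lower among the 11219 genes tested, so the list did not stand far from the background. The median was -0.15, beside -0.21 for all genes. Losses took in the largest subunits of Pol I and its initiation factors (2 of 5 in each role), Ddx21, 3 of 18 processome genes and Nop2. Gains were in Polr1d, the box H/ACA proteins Nop10 and Nhp2, and the processome genes Imp3 and Rcl1.

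Utp20, a very large processome scaffold, had the largest loss, at 13.7 and 12.7 TPM in control ICM and 1.09 and 2.39 TPM in Max MO ICM (-2.42 ± 0.49, adjusted p = 0.00586 by limma). Ubtf was at 132 and 187 TPM in control ICM and 20.9 and 53.7 TPM in Max MO ICM (-2.19 ± 0.40, adjusted p = 0.00348 by limma). Rrp12 was at 34.4 and 36.6 TPM in control ICM and 8.12 and 6.32 TPM in Max MO ICM (-2.16 ± 0.43, adjusted p = 0.00531 by limma). Both Max MO libraries lay under both controls for each of these genes. Rrn3 was at 164 and 187 TPM in control ICM and 52.1 and 38.7 TPM in Max MO ICM (-1.94 ± 0.23, adjusted p = 0.000743 by limma). Polr1b, the second largest subunit of Pol I, was at 171 and 215 TPM in control ICM and 45.1 and 65.4 TPM in Max MO ICM (-1.80 ± 0.37, adjusted p = 0.00597 by limma), and Polr1a at 52.9 and 44.3 TPM in control ICM and 19.5 and 10.97 TPM in Max MO ICM (-1.66 ± 0.37, adjusted p = 0.00887 by limma). These 3 also had no overlap between groups. The remaining losses were Bms1, at 44.0 and 96.5 TPM in control ICM and 18.6 and 13.0 TPM in Max MO ICM, Ddx21 (-1.29) and Nop2 (-1.03).

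Imp3 had the largest gain, at 24.1 and 60.5 TPM in control ICM and 116 and 120.2 TPM in Max MO ICM (1.60 ± 0.48, adjusted p = 0.0302 by limma). Nop10 was at 28.2 and 63.6 TPM in control ICM and 132 and 124 TPM in Max MO ICM (1.57 ± 0.33, adjusted p = 0.00681 by limma). Polr1d was at 63.1 and 82.0 TPM in control ICM and 202 and 176 TPM in Max MO ICM (1.38 ± 0.22, adjusted p = 0.00192 by limma). For all 3 the Max MO libraries lay above both controls. Imp3 and Nop10 were lowest in control ICM replicate 1, the library with high TE markers, and without it Imp3 was lost (0.96) and Nop10 fell under the fold limit (0.99). Imp3 was also lost without Max MO ICM replicate 1 or 2 (1.62 and 1.58). Nhp2 (1.33) and Rcl1 (1.18) were the other gains. TE markers summed to 2718 and 5828 TPM in Max MO ICM, between the controls, and their part in these differences was not tested.

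**Figure D4:**
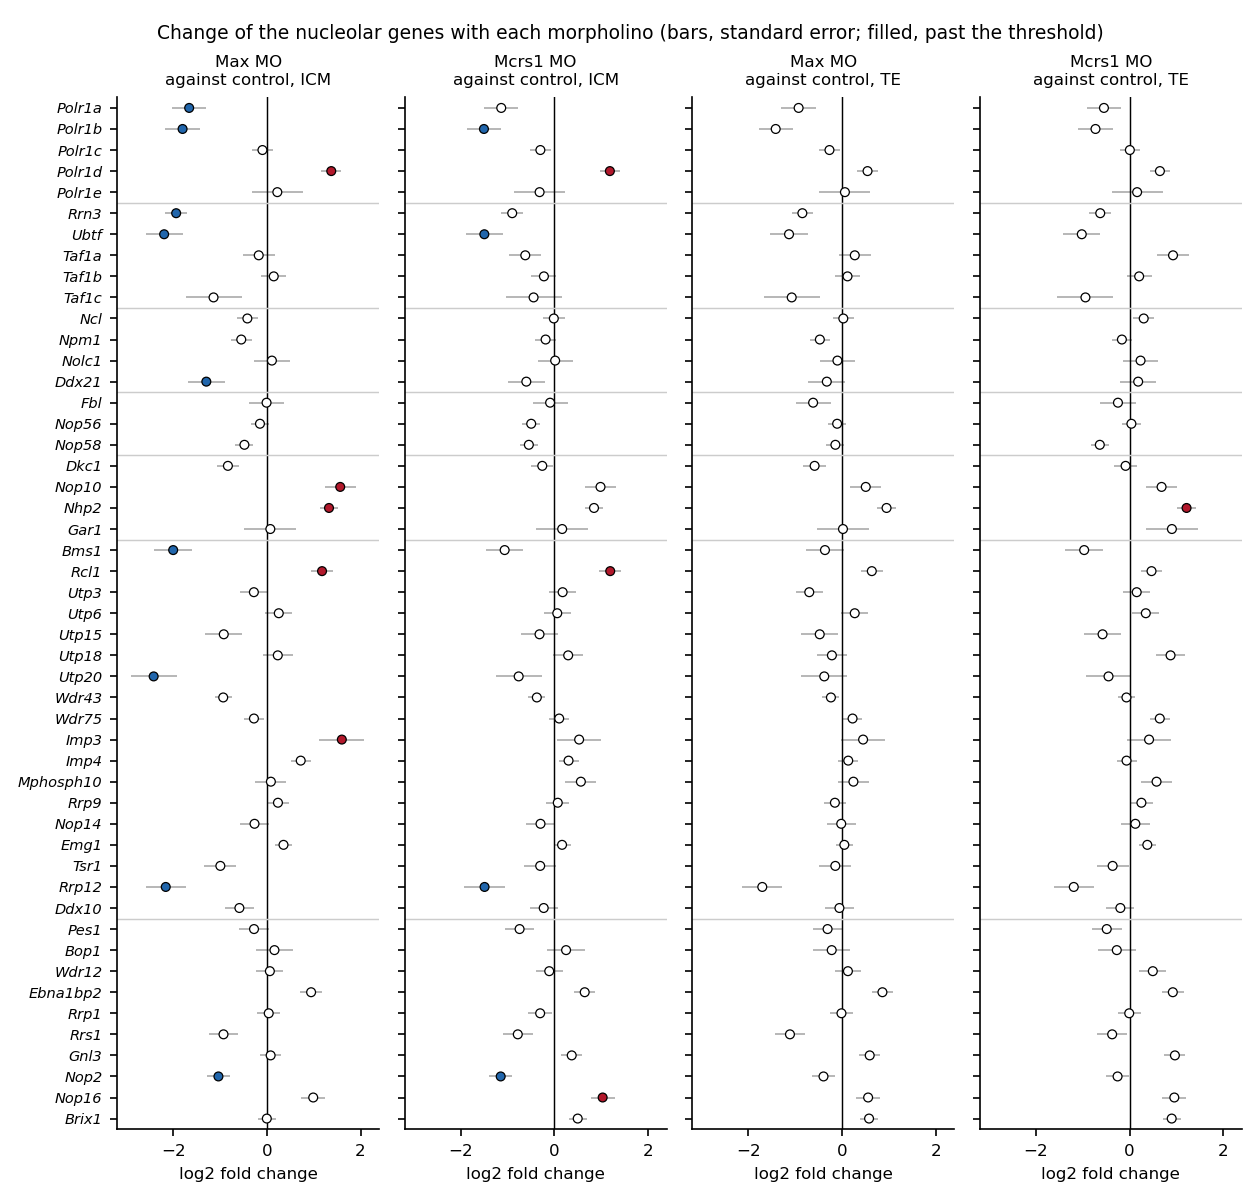
log2 fold change ± SE (x axis) of each of the 49 genes (y axis, grouped by role) in the 4 comparisons of a morpholino group with control libraries of the same lineage, 2 libraries per group. Filled points passed the threshold: 14 in Max MO ICM, 7 in Mcrs1 MO ICM, 0 in Max MO TE and 1 in Mcrs1 MO TE.

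In Mcrs1 MO ICM, 3 genes were higher and 4 lower (6.12% and 8.16%, beside 4.88% and 5.21% of all genes, medians -0.22 and -0.05). The control ICM libraries are the same as above, so these values are not independent of those of Max MO. Polr1b was at 51.0 and 87.5 TPM in Mcrs1 MO ICM (-1.505 ± 0.37, adjusted p = 0.0275 by limma), Ubtf at 47.8 and 63.7 TPM (-1.497 ± 0.40, adjusted p = 0.0364 by limma) and Rrp12 at 11.8 and 12.2 TPM (-1.49 ± 0.43, adjusted p = 0.0458 by limma). Nop2, an rRNA methyltransferase of the 60S pathway, was at 281 and 307 TPM in control ICM and 123 and 142 TPM in Mcrs1 MO ICM (-1.15 ± 0.24, adjusted p = 0.0171 by limma). All 4 had Mcrs1 MO libraries under both controls. Rcl1 was at 63.3 and 45.04 TPM in control ICM and 127 and 119 TPM in Mcrs1 MO ICM (1.19), Polr1d at 168 and 161 TPM (1.18), and Nop16 at 58.6 and 88.5 TPM in control ICM and 154 and 143 TPM in Mcrs1 MO ICM (1.03), each without overlap. Rcl1 (0.95), Polr1b (-1.34), Ubtf (-1.25) and Rrp12 (-1.45) lost their calls without control ICM replicate 2, and Polr1d (1.00) and Nop16 (0.74) without control ICM replicate 1. None of the 7 calls held without either Mcrs1 MO ICM replicate, and 0 genes were called when the ICM libraries were fitted alone, so these calls rest on the spread pooled over both lineages. TE markers were at 8048 to 11557 TPM in Mcrs1 MO ICM and 354 to 16011 TPM in control ICM, and their part was not tested.

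In the TE, no member passed the threshold in Max MO in limma, beside 2.5% of all genes. An unadjusted p under 0.05 was found for 14 of the 49 members and for 2289 of the 11219 genes tested. The largest difference was in Rrp12, at 33.9 and 20.3 TPM in control TE and 9.92 and 5.44 TPM in Max MO TE (-1.70 ± 0.43, adjusted p = 0.061 by limma). Polr1b followed, at 46.3 and 86.8 TPM in control TE and 26.0 and 20.6 TPM in Max MO TE (-1.42 ± 0.37, adjusted p = 0.0643 by limma). For both genes the Max MO libraries lay under the controls, as in the ICM. Nhp2 was at 177 and 206 TPM in control TE and 373 and 368 TPM in Max MO TE, which passed on p and not on fold (0.95 ± 0.19, adjusted p = 0.0361 by limma). In Mcrs1 MO TE, Nhp2 was at 419 and 473 TPM and was the 1 gene that passed (1.22 ± 0.19, adjusted p = 0.0106 by limma), beside 1.77% of all genes higher and 3.31% lower. It was lost without control TE replicate 1 (1.11) or Mcrs1 MO TE replicate 1 or 2 (1.30 and 1.13). When the TE libraries were fitted alone, 4 members passed in Max MO (Polr1b, Rrp12, Ubtf and Rrs1, all lower) and 2 in Mcrs1 MO (Nhp2 higher, Ubtf lower).

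The ICM and TE responses were compared directly. For Max MO, no member and no other gene differed between lineages by the threshold in limma, with 6 members and 1473 of all genes at an unadjusted p under 0.05. Utp20 had the largest difference (-2.04 ± 0.69, adjusted p = 0.273 by limma), at 8.98 and 12.7 TPM in control TE and 10.1 and 6.31 TPM in Max MO TE, and Bms1 was next (-1.64 ± 0.57, adjusted p = 0.278 by limma). That Bms1 or Utp20 passed in one lineage and not in the other is therefore not a shown difference. Without control ICM replicate 1 or 2, 1 member passed, lower in one case and higher in the other. For Mcrs1 MO, 0 members passed and 2, Taf1a (-1.55) and Nop2 (-0.89), had an unadjusted p under 0.05, against 972 of all genes. Between Max MO and Mcrs1 MO, which the study's methods give at different concentrations in these embryos, 1 member passed in the ICM. Rrn3 was at 83.3 and 104 TPM in Mcrs1 MO ICM, above the 52.1 and 38.7 TPM of Max MO ICM (-1.03 ± 0.23, adjusted p = 0.0492 by limma), 1 lower beside 1.5% of all genes lower and 0.312% higher. It was lost without any 1 of the 4 libraries, with log2 fold changes of -1.25, -0.82, -1.19 and -0.88. In the TE 0 members passed, beside 0.0267% of all genes. An unadjusted p under 0.05 was found there for 4 members (Nop58, Rrs1, Utp18 and Utp3) and for 617 of the 11219 genes tested.

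The direction of the ICM changes followed the length of the transcript. Length was that of the longest coding transcript of each gene. In both ICM comparisons the longest transcript among the gains had 1884 bases and the shortest among the losses 2597 bases. Over the 49 genes Spearman's rho between length and log2 fold change was -0.59 in Max MO ICM, -0.53 in Mcrs1 MO ICM, -0.36 in Max MO TE and -0.53 in Mcrs1 MO TE. Over the 10791 genes with a length it was -0.48, -0.33, -0.40 and -0.42. The points are genes that share the same libraries and are not independent. When a trend on length was removed from each library, an alternative chosen after seeing the data, Max MO ICM had 4 genes higher (Imp4, Wdr12, Ebna1bp2 and Rcl1) and 1 lower, Rrn3, at -1.34 (adjusted p = 0.0066 by limma). Mcrs1 MO ICM then had Rcl1 higher (1.04) and Nop2 lower (-1.13), and Mcrs1 MO TE had 5 genes higher (Wdr12, Ebna1bp2, Ncl, Brix1 and Gnl3). The losses of Ubtf, Rrp12, Utp20, Polr1a and Polr1b were not called in that setting. Before the removal, the Max MO ICM changes of Imp4, Wdr12, Ebna1bp2 and Rcl1 were 0.72, 0.06, 0.945 and 1.18. Their lengths were taken as 5836, 10012, 2960 and 1884 bases. A gain in that setting is thus relative to genes of like length and depends on the transcript chosen.

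**Figure D5:**
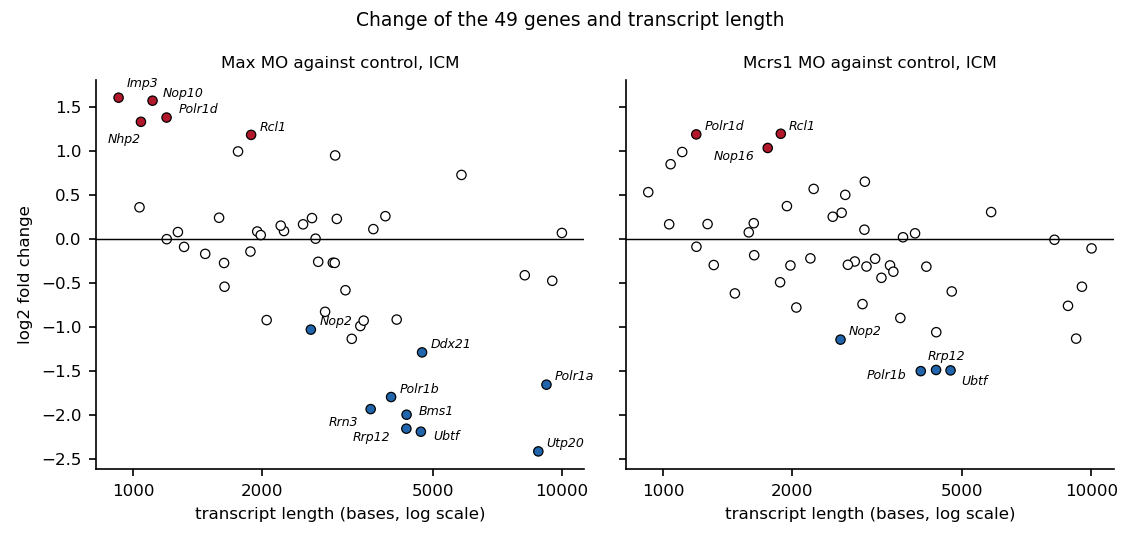
log2 fold change (y axis) of the 49 genes against transcript length in bases (x axis, log scale) in Max MO ICM and Mcrs1 MO ICM, filled where the threshold was passed. Called gains have transcripts of at most 1884 bases and called losses of at least 2597 bases.

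The row of the 47S pre-rRNA, Rn45s, is not a member but is what these proteins act on. In the fertilized blastocysts it was at 7809 and 8983 TPM in control ICM, 630 and 445 TPM in Max MO ICM and 422 and 622 TPM in Mcrs1 MO ICM. In the TE it was at 8374 and 13013 TPM in controls, 335 and 352 TPM in Max MO and 269.6 and 168 TPM in Mcrs1 MO. It was lower in each, with log2 fold changes of -3.98, -4.03, -4.92 and -5.61 (adjusted p = 0.000371, 0.000327, 4.02e-05 and 1e-05 by limma). All 8 morpholino libraries stood within the range of the SCNT libraries (61.7 to 3850 TPM), and the 4 control libraries stood above it. The top of that range was morula replicates 1 to 3, at 3006, 3850 and 2539 TPM. Morula replicates 4 to 6 were at 472, 613 and 379 TPM, so the row also differed widely between libraries of 1 stage. These libraries select polyadenylated RNA, so the row is no measure of rRNA synthesis. The summed TPM of the reference genes was 85.5% to 90.3% of that of the assembled loci in the 4 control libraries and 93.6% to 94.4% in the 8 morpholino libraries, and the part of this difference in the values above was not tested.

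A wider list of 76 other ribosome biogenesis genes was counted in the same fits. At 6 hpa against CCs 9 of the 76 were higher and 38 lower, beside 25.8% and 35.6% of all genes tested. The kinase Riok1 (4.61) and Nol10 (4.34) were at one end and Wdr74 (-4.51) and Polr2k (-4.32) at the other. From E2C to L2C 52 were higher, led by Rpf2 (3.98) and Utp23 (3.27), and 2 were lower, Riok1 (-1.63) and Nol10 (-1.25), beside 23.6% and 11.1% of all genes. At 8C against CCs 51 were higher, with Znhit3 (4.24) and Nle1 (3.92) first, and 1 was lower, Naf1 (-1.08), beside 20.2% and 25.1% of all genes. In Max MO ICM 5 of 75 tested were higher, Polr2f (2.18) and Znrd1 (1.67) most, and 16 were lower, with Heatr1 (-3.06) and Nle1 (-2.33) most, beside 8.65% and 15.1% of all genes. In Mcrs1 MO ICM 5 were higher and 6 lower, beside 4.88% and 5.21% of all genes, a share near the background. This list was chosen with earlier results of these data known.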

How the data were processed

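RNA-seq of polyadenylated RNA was read from 68 libraries (3 CC, 53 SCNT, 12 fertilized). The submitters' processing notes name cutadapt 1.16, HISAT2, StringTie, Cufflinks and deepTools and the genome build mm10; per the study's methods StringTie gave the TPM values. The deposited tables list coverage, FPKM and TPM per gene, made by the authors, and only the TPM values were analysed. The deposited TPM column was treated as a signal, because it holds assembled loci, which alone reach the full TPM sum, beside the reference genes, while FPKM and coverage from the authors served only to infer depth. Depth limits the precision of low genes, and counting intervals could not be given without counts.

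TPM was summed per gene name. Samples were grouped by GEO labels. The filter kept genes whose TPM averaged 1 or more in a set of libraries, and log2(TPM + 1) was fitted with limma 3.58.1 (R 4.3.3) with 1 mean per group, empirical Bayes moderation with a trend, and Benjamini-Hochberg adjustment over all genes tested. A call needed an adjusted p under 0.05 and at least a 2-fold difference, and fold changes on the log2(TPM + 1) scale understate the change of low genes. CC and SCNT libraries were fitted together, and fertilized libraries together. With 2 libraries per fertilized group, an exact permutation test could not have passed the threshold, so the calls lean on the pooled spread. The script was tested on simulated data. Tables and figures were made with Python 3.11.15, matplotlib 3.10.9, scipy 1.17.1, pandas 2.3.3 and numpy 2.4.6. Transcript lengths were those of the longest coding GENCODE transcript.

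All 49 members are named by role. Library values (every one in groups of up to 5, otherwise the lowest, median and highest) are given for the 3 largest gains and the 3 largest losses among called members in each comparison and for the most abundant member of each role. The members and all lists were chosen with earlier results of these data known. The alternatives were a pseudocount of 0.1, no filter, rescaling to the reference genes, quantile normalization, the replicate number as a block, replicates 1 to 3 or 4 to 6 of the SCNT stages, each lineage alone, leaving out each library, and, chosen after seeing the data, removal of a trend on transcript length or GC content. Another took the largest row of each gene name in place of the sum, which left the members' values unchanged. Replicate numbers were checked for pairing by the correlation of same-numbered libraries' deviations from their group means, a hint from the data and not from the labels. Every pair's correlation was over 0.1 between 6 hpa and 14 hpa (lowest 0.142, 6 pairs) and between SCNT ICM and TE (lowest 0.13, 6 pairs), and in these comparisons the fit with the replicate number as a block changed no call of a named member. No 2 libraries held identical values (0 identical pairs).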

Additional observations from a re-analysis of the deposited data

Results flagged for a closer look

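Values of each SCNT stage (6 libraries, 5 at 4C) were tested for a library far from the rest, in 81 sets. The values were the members' share of reference gene TPM, the most abundant member of each role, and Rn45s. In 8 sets 1 library stood far from the rest, where chance alone gives about 1 in 20 per test. The sets share libraries and are not independent. In L2C replicate 2 the members' share was 1.384%, against 0.6475% to 0.8787% in the other L2C libraries, and Npm1 was at 1677 TPM there, against 515.5 to 792.9 TPM. L2C replicate 1 was low in Nhp2 (129.4 TPM against 431.3 to 499.2 TPM) and in Emg1 (80.62 TPM against 200.5 to 324.1 TPM). Emg1 was also low in 4C replicate 1 (242.3 TPM against 353.2 to 388.8 TPM) and in SCNT ICM replicate 3 (132.4 TPM against 215 to 273.6 TPM). Nop56 was high in morula replicate 2, at 721.3 TPM against 456.8 to 527.2 TPM. Polr1d was low in E2C replicate 3, at 63.36 TPM against 83.67 to 98.25 TPM.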

How the results depend on the processing

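Of 72 calls of named members, 41 held in every setting tried, and none reversed. The counts of members called stayed within 1.5 times of the reported ones in 162 of 198 cases over the settings below, and the causes of the changes were not tested. The 198 cases include a setting that took the largest row of each gene name in place of the sum. Each member had 1 row per table, so the members' values could not differ in that setting, and its cases say nothing on stability. The counts below are of members, and shares of all genes are given only where stated. With a pseudocount of 0.1, 14 hpa against 6 hpa had 3 calls. Without the filter, 8C against 4C had 5, Mcrs1 MO ICM 3 and Max MO against Mcrs1 MO in the ICM 0. Rescaled to the reference genes these were 27 for L2C against CCs, 2 for 8C against 4C and 0 for Max MO against Mcrs1 MO in the ICM, and under quantile normalization 23, 4 and 0. The all-gene medians moved by over 0.1 under rescaling, as for L2C against CCs (0.70 in place of 0.17) and L2C against E2C (0.52 in place of 0.26), and under quantile normalization the share of all calls that were higher was 53.3% in place of 36.5% in Max MO ICM, 50.6% in place of 30.7% for 4C against L2C and 49.1% in place of 71.9% for morulae against 8C. With replicates 1 to 3, counts were 10 for E2C against CCs, 12 for E2C against 14 hpa, 14 for L2C against E2C, 4 for 4C against L2C, 3 for 8C against 4C and 3 for ICM against TE. With replicates 4 to 6, they were 26 for ICM against CCs, 12 for 14 hpa against 6 hpa, 17 for E2C against 14 hpa, 22 for 4C against L2C, 8 for morulae against 8C and 2 for ICM against TE. With 1 lineage alone, Mcrs1 MO ICM and Max MO against Mcrs1 MO in the ICM had 0, Max MO TE 4 and Mcrs1 MO TE 2. With the length trend removed, Max MO ICM had 5, Mcrs1 MO ICM 2, Max MO TE 1, Mcrs1 MO TE 5 and Max MO against Mcrs1 MO in the ICM 0. With the GC trend removed, Max MO TE had 2, Mcrs1 MO TE 6 and Max MO against Mcrs1 MO in the ICM 0.

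Leaving out 1 library gave 13 to 20 calls for TE against CCs, 3 to 6 for 14 hpa against 6 hpa, 8 to 15 for 4C against L2C, 3 to 12 for 8C against 4C, 2 to 5 for morulae against 8C, 0 to 1 for ICM against TE and for the Max MO response between lineages, 0 to 8 for Mcrs1 MO ICM, 0 to 1 for Mcrs1 MO TE and 0 throughout for Max MO against Mcrs1 MO in the ICM. A lone library left in a group was assumed to vary like the others.

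Pairing by replicate number held for 3 of 45 pairs of CC and SCNT groups, those of 6 hpa with 14 hpa, ICM with TE, and 14 hpa with TE, where every correlation of same-numbered libraries' deviations was over 0.1. The mean correlation ran from -0.052 to 0.264 over the 45 pairs (median 0.0765) and from -0.038 to 0.128 over 15 pairs of fertilized groups, which have 2 libraries each. Among the fertilized groups the correlation was over 0.1 for 1 pair, control ICM with control TE (0.128). With 2 libraries per group, both same-numbered pairs give the same value. Elsewhere the samples share only a number. With the replicate block, 14 hpa against 6 hpa had 5 calls and ICM against TE 0, 6 hpa against CCs had 32 calls in place of 28, Max MO ICM 14 and Mcrs1 MO ICM 7 as without it, Max MO TE 1 in place of 0, and Max MO against Mcrs1 MO in the ICM 0 in place of 1.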

Other observations

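Myc and Mycn, the genes of the partners through which MAX acts, were followed along the SCNT stages as values. Myc stood between 60.6 and 106.5 TPM in CCs and at or under 1.47 TPM in every 6 and 14 hpa library. It was between 4.02 and 69.2 TPM at 8C, with a median of 19.2 TPM, and so overlapped CCs only there among the cleavage stages. Mycn was under 1.08 TPM in every library from 6 hpa to E2C, between 2.59 and 17.99 TPM at L2C, and under 1.00 TPM again at 8C. Max itself was between 4.71 and 11.8 TPM in CCs, between 46.8 and 84.4 TPM at E2C with a median of 70.2 TPM, and between 0.879 and 11.1 TPM at 8C. Mcrs1 was between 22.2 and 32.4 TPM in CCs, between 9.29 and 25.0 TPM at E2C and between 50.7 and 246 TPM at 8C. These 4 genes were also in the limma fits over the stages, and their test results are not given here.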
